A study of Mus musculus with 6 samples.

Results

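The 10 genes described here encode carriers of sugars, lactate or, for Slc2a9, urate in the kidney. Of these genes, 6 are from the sodium-coupled Slc5 family and 4 from the facilitative Slc2 (GLUT) family. They were chosen by symbol, and all 10 were found among the 25031 genes of the count table. Each of the 10 also passed the filter on low counts, which left 15416 genes for testing, and the lowest count of any member in any library was 353. Messenger RNA was sequenced from kidneys of wild-type male C57BL/6 mice, an inbred laboratory strain, aged 7 to 8 weeks. Every mouse, controls included, underwent 23 minutes of ischemia of both kidneys and then reperfusion, with the core held at 37 °C. The vehicle group (3 libraries) received saline, and the CePPy group (3 libraries) received (+)CePPy, positively charged polypyrrole nanoparticles doped with cerium, by vein at 5 mg/kg straight after the injury. No uninjured kidney was analysed here, so all levels are those of injured tissue, and the sources used here do not give the time of collection.

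Glucose that passes the glomerular filter is taken back by the proximal tubule in a pair of steps. A sodium-coupled carrier of the Slc5 family brings it into the cell from the lumen, and a GLUT carrier of the Slc2 family lets it out on the blood side. The early segment uses the high-capacity carrier SGLT2 (Slc5a2) with GLUT2 (Slc2a2), and the late segment uses the high-affinity carrier SGLT1 (Slc5a1) with GLUT1 (Slc2a1). Lactate is recovered from the lumen by the sodium-coupled carriers SMCT1 (Slc5a8) and SMCT2 (Slc5a12), and serves the tubule as fuel and as a source of new glucose.

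Total counts were between 29762157 and 37415213 per library. Levels are given as CPM, counts scaled to library size after TMM adjustment, and 1 count equalled between 0.0266 and 0.0333 CPM. Markers of every nephron segment examined were present, and no gene of the 11 marker lists was at 0 in all libraries. Nothing in the labels ties each library to its own mouse, so the p-values cover the spread among these libraries only, and that spread may be technical. CePPy 1 lay farthest from vehicle and CePPy 2 nearest for summed markers of the S1 and S2 parts of the proximal tubule. These summed to between 3858 and 4242 CPM in vehicle and to 9283, 4342 and 6410 in CePPy 1, 2 and 3. Of the 12 genes in that list, 10 had higher mean values in CePPy, as did all 7 of the thick ascending limb, all 6 of the distal convoluted and connecting tubule, all 10 of the collecting duct and 2 of 6 podocyte genes. With total counts as library sizes, Klk1 of the distal convoluted and connecting tubule and Ptpro of the podocyte list turned lower. Only 1 of the 6 distal convoluted and connecting tubule genes stood above vehicle in every CePPy library, as did 12.3% of all genes. Their sums overlapped, at 1811, 1482 and 2041 CPM in vehicle and 2505, 1539 and 1756 in CePPy. In bulk tissue, fewer cells of a type and less RNA per cell cannot be told apart.

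The carriers differed widely in abundance. Per kb of exon, Slc5a2 had the highest mean level in vehicle, at 65.6 ± 1.23 CPM per kb (SD, n = 3), and Slc2a9 the lowest, at 2.73 ± 0.379. Slc5a10 followed at 42.4 ± 20.4, Slc2a2 at 32.7 ± 0.452 and Slc5a12 at 27.2 ± 5.09 CPM per kb. Slc2a1 measured 23.6 ± 2.33 and Slc5a1 16.0 ± 1.247 CPM per kb, so the early carrier of each family stood above the late one in all 3 vehicle libraries. Slc5a8 measured 8.20 ± 1.07, Slc2a5 7.33 ± 1.23 and Slc5a9 3.55 ± 0.193 CPM per kb. Among neighbours in this order, the vehicle ranges overlapped between Slc5a2 and Slc5a10, Slc5a10 and Slc2a2, Slc5a12 and Slc2a1, and Slc5a8 and Slc2a5. In CePPy the order had moved in the middle. Slc5a12, at 37.4 ± 9.24 CPM per kb, stood above Slc2a2, at 31.3 ± 1.19, and Slc5a1, at 27.9 ± 2.39, stood above Slc2a1, at 23.6 ± 4.99. The CePPy ranges of both pairs overlapped.

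**Figure D1:**
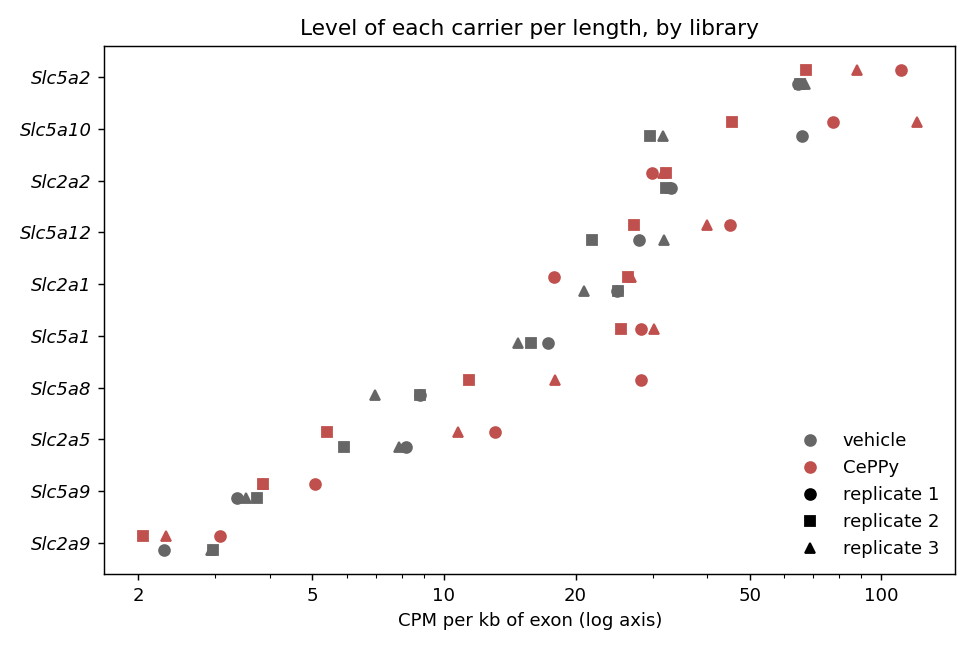
Level of each carrier in CPM per kb of exon (horizontal log axis) in the 6 libraries, coloured by group and shaped by replicate number, with genes in order of the vehicle mean. Slc5a2 leads in vehicle at 65.6 CPM per kb and Slc2a9 is lowest at 2.73.

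All 6 Slc5 carriers had higher mean values after CePPy, whereas of the 4 Slc2 carriers 2 were higher and 2 lower, and 3 were lower with total counts as library sizes, where Slc2a1 turned. The median log2 fold change, CePPy against vehicle, was 0.63 for the Slc5 members and -0.031 for the Slc2 members, beside 0.0030 for all genes tested, of which 50.5% were above 0. No member passed the edgeR quasi-likelihood test at an adjusted p under 0.05 over all genes, by which 0.00649% of genes were called. At an unadjusted p under 0.05, 4 members were higher (Slc5a1, Slc5a8, Slc5a2 and Slc5a10) and 0 lower, where 9.65% of all genes were higher and 9.37% lower (19% in either direction). DESeq2, run as an alternative, called 2 members higher over all genes, Slc5a1 and Slc5a8, where it called 3.4% of genes higher. The split into 6 higher Slc5 members and a mixed Slc2 group was seen after the values were known and was not tested.

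**Figure D2:**
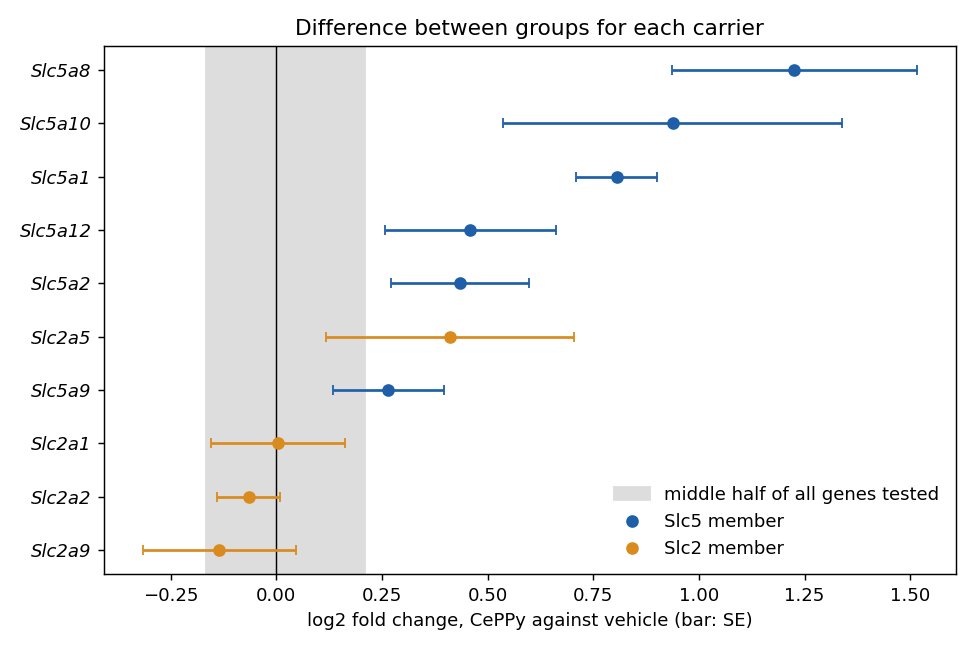
Log2 fold change of each carrier, CePPy against vehicle (horizontal axis, bars are SE), coloured by family, over a grey band that spans the middle quartiles of all genes tested. The Slc5 members run from 0.26 (Slc5a9) to 1.23 (Slc5a8), and 3 of the 4 Slc2 members sit between -0.14 and 0.0042.

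Slc5a2 encodes SGLT2, the luminal carrier that takes up most of the filtered glucose (chromosome 7, 128265657 to 128272430, plus strand, GRCm38). It measured 187, 189 and 194 CPM in vehicle 1, 2 and 3 and 321, 195 and 255 in CePPy 1, 2 and 3. The vehicle libraries lay close together, CePPy 1 and CePPy 3 stood well above them, and CePPy 2 was above the highest vehicle library by less than 1 CPM. The log2 fold change of 0.43 ± 0.16 (SE) had an edgeR adjusted p of 0.213. It was 0.25 without CePPy 1 and 0.60 without CePPy 2, and only in the latter case did it pass (edgeR adjusted p = 0.0336). Exons of BC017158 lie on the opposite strand of this locus and overlap those of Slc5a2, and that gene measured between 29.1 and 37.0 CPM with CePPy inside the vehicle range.

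Slc5a1 encodes SGLT1, which recovers the glucose that escapes the early segment (chromosome 5, 33104219 to 33162870, plus strand, GRCm38). Vehicle libraries measured 70.9, 65.0 and 60.7 CPM and CePPy libraries 116, 104 and 124. All 3 CePPy libraries stood apart from vehicle by a similar amount, at 1.76, 1.59 and 1.89 times the vehicle mean, and CePPy 2, the library nearest to vehicle for other proximal genes, was nearly as high as the others. The coefficient of variation within CePPy was 8.57% for Slc5a1 beside 24.5% for Slc5a2 and 44.1% for Slc5a8. Its log2 fold change of 0.81 ± 0.10 (SE) missed the threshold by edgeR (adjusted p = 0.0739). It passed by DESeq2 (adjusted p = 2.76e-09), by limma-voom with sample weights (adjusted p = 0.0278), by edgeR without the low-count filter (adjusted p = 0.0365) and by edgeR without CePPy 2 (adjusted p = 0.0123).

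Slc2a2 encodes GLUT2, the exit carrier of the early segment (chromosome 3, 28697903 to 28731359, plus strand, GRCm38). It was the steadiest of the 10 carriers, with the lowest coefficient of variation in vehicle (1.38%) and in CePPy (3.8%), at 190, 185 and 189 CPM in vehicle and 172, 185 and 183 in CePPy. CePPy 1, the library with the highest Slc5a2, had the lowest Slc2a2. Each CePPy library was below each vehicle library, as for 14% of genes, but vehicle 2 and CePPy 2 differed by less than 1 CPM. By edgeR the log2 fold change was -0.066 ± 0.074 (SE), with an adjusted p of 0.658. The ratio of Slc5a2 to Slc2a2 counts, luminal to blood-side carrier of the early segment, was 0.984, 1.02 and 1.02 in vehicle and 1.86, 1.05 and 1.40 in CePPy, a description chosen after the values were seen.

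Slc2a1 encodes GLUT1, the exit carrier of the late segment, which many other cells also make (chromosome 4, 119108711 to 119137983, plus strand, GRCm38). It measured 87.2, 87.4 and 73.1 CPM in vehicle and 62.7, 92.2 and 93.7 in CePPy. The groups overlapped, with CePPy 1 the lowest of all 6 libraries and CePPy 2 and 3 the highest. With edgeR, the log2 fold change of 0.0042 ± 0.16 (SE, adjusted p = 0.993) had no stable sign, running from -0.089 without CePPy 3 to 0.17 without CePPy 1. It was -0.017 with total counts alone as library sizes. Exons of Gm12868, an antisense gene on the opposite strand, overlap those of Slc2a1, and no level of Gm12868 is given here. Over the whole kidney, the ratio of Slc5a1 to Slc2a1 counts was 0.813, 0.744 and 0.829 in vehicle and 1.84, 1.13 and 1.32 in CePPy. This too is a description chosen after the values were seen, and it is not a value of the late segment alone.

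Sums of markers of injured tubule and of other cell types were taken over the same libraries. Markers of injured proximal tubule summed to between 31455 and 32233 CPM in vehicle and to 17599, 34037 and 26311 in CePPy 1, 2 and 3. Most of that sum was Spp1, at 23070 to 24110 CPM in vehicle and 14480, 26820 and 21000 in CePPy 1, 2 and 3. Of the 10 genes in the list, 9 had lower mean values in CePPy. Among them, 6 stood lower in every CePPy library than in any vehicle library, CePPy 2 included, as did 14% of all genes. Endothelial markers summed to between 634 and 720 CPM in vehicle and 637 and 674 in CePPy. Red blood cell genes summed to between 305 and 378 CPM in vehicle and 305 and 421 in CePPy, and macrophage genes to between 150 and 178 and between 142 and 167. Neutrophil genes, all 6 tested being lower, summed to between 34.1 and 51.0 CPM in vehicle and 10.02 and 23.3 in CePPy. The part of these cells in the level of Slc2a1 was not tested.

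**Figure D3:**
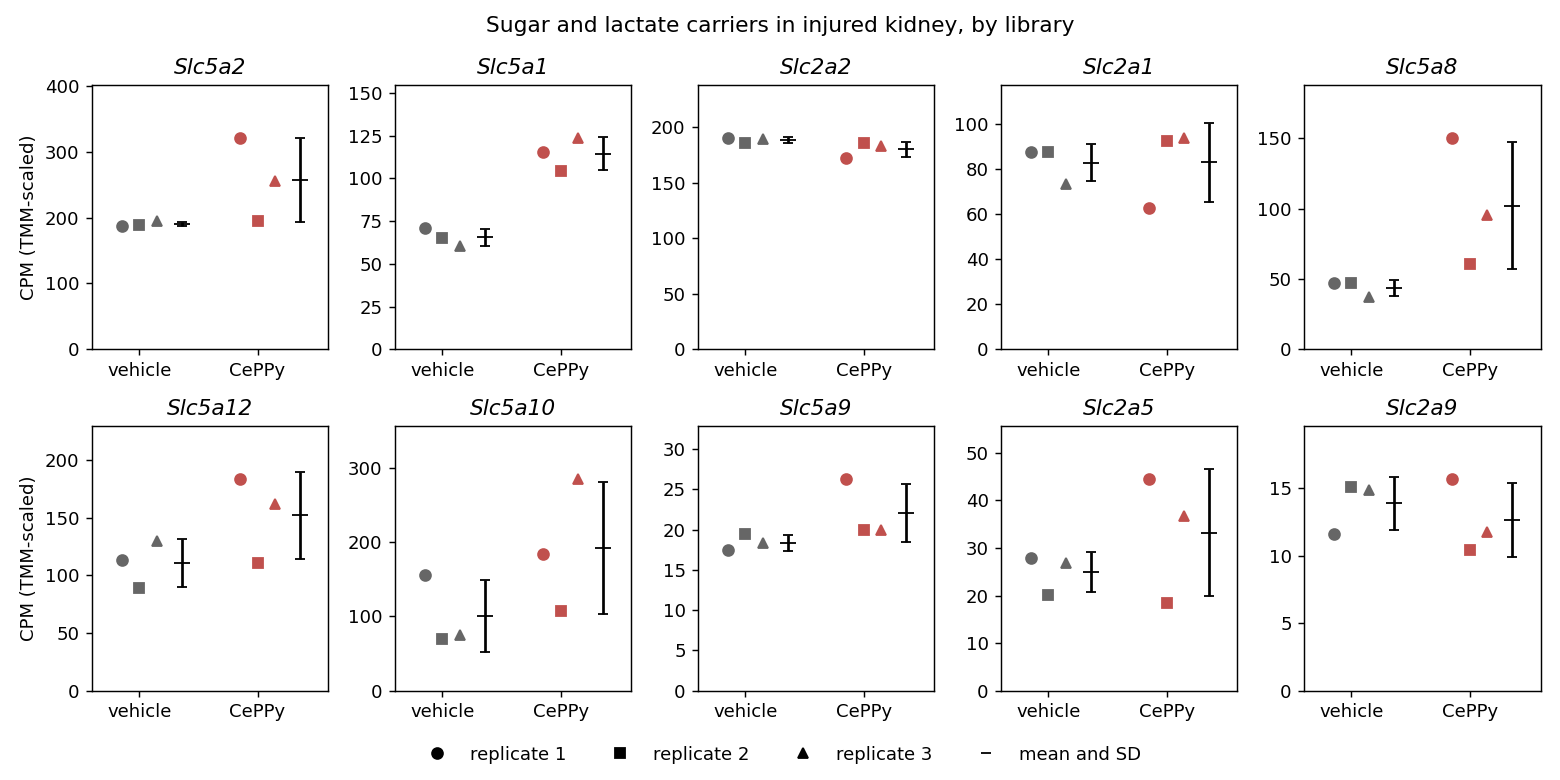
CPM of each carrier (vertical axes from 0, TMM-scaled) in the vehicle (grey) and CePPy (red) libraries, with point shape by replicate number and a bar for the mean and SD of 3 libraries. Slc5a1 is the member whose CePPy points stand together and apart from vehicle, while Slc5a2 and Slc5a8 spread from CePPy 2 to CePPy 1 and Slc2a2 hardly moves.

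Stretches of DNA just before the start of 4 carriers are shown to set the 2 Slc5 genes with an adjusted p under 0.05 by DESeq2 beside the 2 glucose exit carriers, whose fold changes were near 0. They come from the promoter table of RefSeq for GRCm38.p6, which matched 7 of the 10 members and held no entry for Slc5a2, Slc5a9 or Slc5a12. Bases within annotated exons were left out, so Slc2a1 has 216 bases and the others 250. Capitals mark matches, on either strand, to ACGTG, the core bound by hypoxia-inducible factors and part of the CACGTG box of other factors. The regions are chr5:33103969-33104218 (plus) for Slc5a1, chr10:88885742-88885991 (plus) for Slc5a8, chr3:28697653-28697902 (plus) for Slc2a2 and chr4:119108495-119108710 (plus) for Slc2a1.
Slc5a1: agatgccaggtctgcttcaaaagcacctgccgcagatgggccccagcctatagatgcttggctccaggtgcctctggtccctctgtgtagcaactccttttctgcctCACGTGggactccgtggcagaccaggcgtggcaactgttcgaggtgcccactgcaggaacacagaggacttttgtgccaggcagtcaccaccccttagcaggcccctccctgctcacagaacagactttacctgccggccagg
Slc5a8: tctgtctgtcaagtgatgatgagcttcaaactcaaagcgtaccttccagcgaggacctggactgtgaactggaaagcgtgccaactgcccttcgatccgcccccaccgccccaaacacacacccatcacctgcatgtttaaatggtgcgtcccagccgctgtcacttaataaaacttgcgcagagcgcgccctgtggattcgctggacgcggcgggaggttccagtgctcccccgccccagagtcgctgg
Slc2a2: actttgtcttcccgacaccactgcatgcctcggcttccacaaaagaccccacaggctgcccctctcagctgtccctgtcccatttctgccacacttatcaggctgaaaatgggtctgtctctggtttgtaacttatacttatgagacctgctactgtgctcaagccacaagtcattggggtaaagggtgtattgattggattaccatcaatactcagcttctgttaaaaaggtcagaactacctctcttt
Slc2a1: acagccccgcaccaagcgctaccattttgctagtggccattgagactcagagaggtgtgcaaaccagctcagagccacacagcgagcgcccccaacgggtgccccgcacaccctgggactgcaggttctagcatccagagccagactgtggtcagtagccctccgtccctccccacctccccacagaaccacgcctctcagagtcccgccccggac
ACGTG was found only before Slc5a1 among these 4, as the palindrome CACGTG, where its matches on both strands overlap. Of 32851 RefSeq promoters, 16.6% held ACGTG within the same 250 bases. These matches describe letters only and say nothing of binding.

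Within each library, the late carrier was set against the early one, since a ratio of counts does not depend on scaling. The log2 ratio of Slc5a1 to Slc5a2 was -1.40, -1.54 and -1.68 in vehicle and -1.47, -0.90 and -1.04 in CePPy. It was higher in CePPy 2 and CePPy 3 than in any vehicle library, but CePPy 1, where both genes were high, lay inside the vehicle range. The mean difference was 0.40, against SDs of 0.138 in vehicle and 0.297 in CePPy (exact two-sided permutation p = 0.2, adjusted p = 0.3 over 3 ratios), and the smallest p that 3 against 3 libraries allow is 0.1. Per kb, SGLT1 transcripts made up 19.6% ± 1.503 (SD, n = 3) of the SGLT1 and SGLT2 total in vehicle and 24.4% ± 3.70 in CePPy. The log2 ratio of Slc2a1 to Slc2a2 was -1.13, -1.08 and -1.37 in vehicle and -1.46, -1.01 and -0.96 in CePPy, so the groups overlapped. Its mean difference was 0.052 (exact permutation p = 0.7, adjusted p = 0.7).

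The segment markers gave a background for this comparison. Of the 10 genes listed for S3, the last part of the proximal tubule, 9 stood higher in every CePPy library than in any vehicle library, as did 12.3% of all genes, and Slc17a4 stood lower. Their summed level was between 858 and 893 CPM in vehicle and 2001, 1066 and 1223 in CePPy 1, 2 and 3. Most of the vehicle sum was Atp11a, at 555 to 583 CPM in vehicle and 791, 645 and 634 in CePPy 1, 2 and 3. The median log2 fold change of the list was 1.19. For the 12 genes of S1 and S2 the median was 0.51, with 4 of them above vehicle in every CePPy library. Among the carriers, 4 of 10 stood above vehicle in every CePPy library, namely Slc5a1, Slc5a2, Slc5a8 and Slc5a9. The gap was narrow for Slc5a2, with CePPy 2 at 194.81 CPM and vehicle 3 at 194.11. It was also narrow for Slc5a9, with CePPy 3 at 19.97 CPM and vehicle 2 at 19.42.

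**Figure D4:**
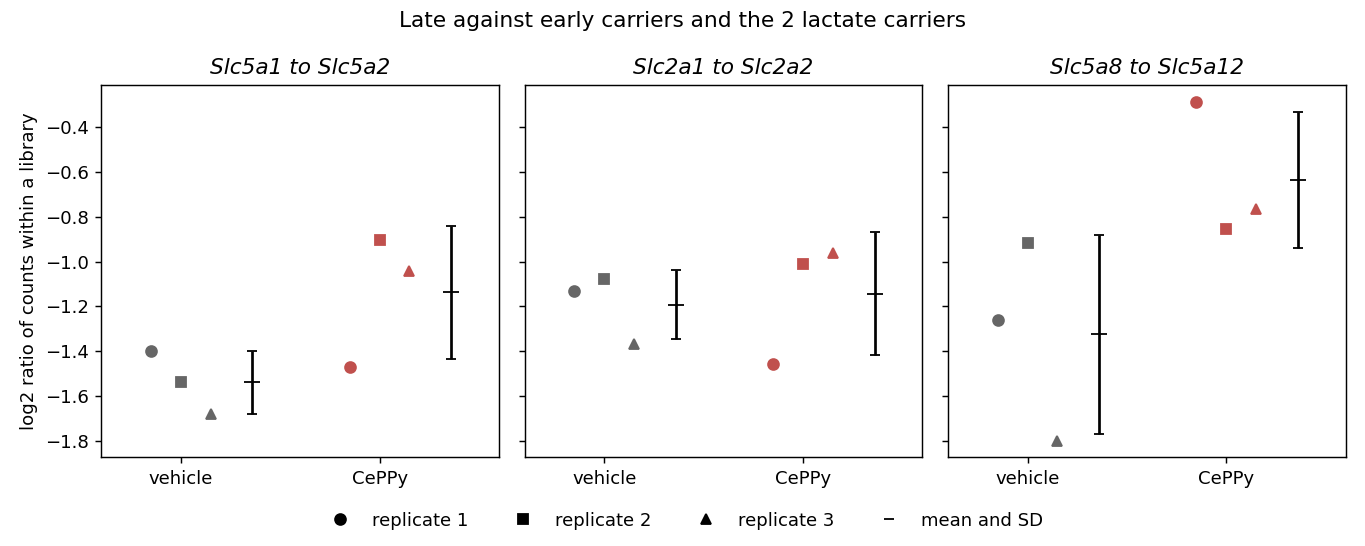
Log2 ratio of counts within each library (shared vertical axis) for Slc5a1 to Slc5a2, Slc2a1 to Slc2a2 and Slc5a8 to Slc5a12, with point shape by replicate number and a bar for the mean and SD of 3 libraries. Only the lactate pair has no overlap between vehicle (-1.80 to -0.92) and CePPy (-0.86 to -0.29).

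Both lactate carriers had higher mean values after CePPy. Slc5a8 encodes SMCT1, the high-affinity carrier of lactate, pyruvate and short-chain fatty acids (chromosome 10, 88885992 to 88929515, plus strand, GRCm38). It measured 47.1, 46.9 and 37.1 CPM in vehicle and 150, 61.0 and 95.4 in CePPy, with no overlap and with CePPy 1 at 3.44 times the vehicle mean. Its log2 fold change of 1.23 ± 0.29 (SE) was the largest in size among the 10 members, with an edgeR adjusted p of 0.117. It passed by DESeq2 (adjusted p = 0.000394), by limma-voom with sample weights (adjusted p = 0.045) and by edgeR without CePPy 2 (adjusted p = 0.0166).

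Slc5a12 encodes SMCT2, the low-affinity lactate carrier (chromosome 2, 110597298 to 110647779, plus strand, GRCm38). Vehicle libraries measured 113, 88.5 and 130 CPM and CePPy libraries 183, 110 and 162. CePPy 2 fell among the vehicle values and the other CePPy libraries above them. This gave a log2 fold change of 0.46 ± 0.20 (SE) and an edgeR adjusted p of 0.27, and the fold change was 0.30 without CePPy 1. The log2 ratio of Slc5a8 to Slc5a12 was -1.26, -0.92 and -1.80 in vehicle and -0.29, -0.86 and -0.76 in CePPy. The groups did not overlap, by a margin of less than 0.1 between vehicle 2 and CePPy 2, and the mean difference of 0.69 reached the smallest p possible (exact permutation p = 0.1, adjusted p = 0.3 over 3 ratios). Per kb, SMCT1 transcripts made up 23.6% ± 5.44 (SD, n = 3) of the pair in vehicle and 33.0% ± 4.75 in CePPy.

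Of the carriers of other sugars, Slc5a10 varied most between libraries, with coefficients of variation of 48.2% in vehicle and 46.3% in CePPy. It encodes SGLT5, a carrier of mannose and fructose (chromosome 11, 61672781 to 61720826, minus strand, GRCm38). It measured 156, 69.9 and 74.98 CPM in vehicle and 184, 108 and 285 in CePPy. Vehicle 1 lay far above the other vehicle libraries and above CePPy 2, and CePPy 3, not CePPy 1, was the highest. EdgeR gave a log2 fold change of 0.94 ± 0.40 (SE) and an adjusted p of 0.26. It became 1.41 without vehicle 1 and 0.54 without CePPy 3. The genes Grap and Fam83g have exons on the opposite strand that overlap its own. Grap measured 4.43 to 7.27 CPM over the 6 libraries and Fam83g 12.1 to 21.9, both far below Slc5a10 in each library.

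Slc5a9 encodes SGLT4, a mannose carrier (chromosome 4, 111875375 to 111902918, minus strand, GRCm38). Its values were 17.4, 19.4 and 18.3 CPM in vehicle and 26.3, 19.99 and 19.97 in CePPy. Only CePPy 1 stood clearly above vehicle. The difference on the log2 scale was 0.26 ± 0.13 (SE; edgeR adjusted p = 0.315), and 0.12 without CePPy 1. Slc2a5 encodes GLUT5, the fructose carrier (chromosome 4, 150119283 to 150144169, plus strand, GRCm38). It measured 27.8, 20.1 and 26.9 CPM in vehicle and 44.5, 18.4 and 36.6 in CePPy, so CePPy 2 was the lowest of all 6 libraries while the other CePPy libraries were the highest. Its log2 fold change by edgeR was 0.41 ± 0.29 (SE; adjusted p = 0.478), ranging from 0.14 without CePPy 1 to 0.70 without CePPy 2.

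Slc2a9 encodes GLUT9, which carries urate rather than glucose in the body (chromosome 5, 38349273 to 38503143, minus strand, GRCm38). It measured 11.6, 15.1 and 14.9 CPM in vehicle and 15.7, 10.4 and 11.8 in CePPy. The groups overlapped throughout, and the log2 fold change by edgeR was -0.14 ± 0.18 (SE; adjusted p = 0.713). Without CePPy 1 it was -0.32 and without CePPy 2 -0.014.

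Across the Slc5 members the same libraries tended to lead. CePPy 1 was the highest of all 6 libraries for Slc5a2, Slc5a8, Slc5a9 and Slc5a12, and CePPy 3 for Slc5a1 and Slc5a10. CePPy 2 was the lowest CePPy library for Slc5a1, Slc5a2, Slc5a8, Slc5a10 and Slc5a12, while for Slc5a9 CePPy 2 and 3 measured 19.99 and 19.97 CPM.

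Genes with the most similar pattern of log2 CPM over the 6 libraries were sought among 9468 genes, as a description in which the groups themselves contribute to the correlation. For Slc5a2 these were the lysosomal sulfatase gene Galns (Pearson r = 0.9996), Acadm, of fatty acid oxidation (0.9977), and Slc2a4, which encodes the insulin-responsive carrier GLUT4 (0.9966). Acadm measured 332, 328 and 352 CPM in vehicle and 600, 353 and 459 in CePPy. For Slc2a2 they were Zfp219 (0.9966), the splicing factor gene Sf3b3 (0.9944) and Kctd11 (0.9941). For Slc5a1 they were Tcp11l2 (0.993), Specc1l (0.9897) and Cab39l (0.9859), and their folds were smaller: Tcp11l2 measured 11.97 to 12.2 CPM in vehicle and 13.6 to 13.97 in CePPy. For Slc2a1 they were the kinesin gene Kif2a (0.9932), the kinase gene Camkk2 (0.9872) and Plet1 (0.9862). Plet1 measured 71.2, 75.4 and 48.7 CPM in vehicle and 40.4, 84.5 and 92.0 in CePPy, with CePPy 1 and vehicle 3 the lowest libraries, as for Slc2a1.

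In the rest of both families, every gene that passed the filter on low counts had a fold change above 0, as did 50.5% of all genes tested. The direction of the genes that did not pass is not given. Of 7 other Slc5 genes, 3 passed the filter and all 3 were higher, with a median log2 fold change of 0.23. Slc5a3, the myo-inositol carrier, measured 109, 122 and 111 CPM in vehicle and 134, 129 and 138 in CePPy, without overlap (log2 fold change 0.23 ± 0.08 SE; adjusted p by edgeR 0.187). Of 8 other Slc2 genes, 7 passed the filter and all 7 were higher, with a median of 0.41, and 0 passed over all genes by edgeR. Slc2a4 measured 8.30, 8.30 and 8.65 CPM in vehicle and 23.4, 9.60 and 14.8 in CePPy (log2 change 0.92 ± 0.29 SE; adjusted p by edgeR 0.162). DESeq2 called Slc2a4 higher (adjusted p = 0.0301), alone among these 7, as it called 3.4% of genes. Slc2a13, a proton-coupled myo-inositol carrier, measured 2.47 ± 0.491 CPM in vehicle and 4.01 ± 0.899 in CePPy (SD, n = 3 each). Slc2a12 measured 4.97 ± 1.23 and 8.07 ± 4.15 CPM and Slc2a10 1.84 ± 0.409 and 2.45 ± 0.222.

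Monocarboxylate carriers of the Slc16 family, only some of which move lactate, differed in both directions. Slc16a4, Slc16a7, Slc16a9 and Slc16a14 had higher fitted values in CePPy and the 6 other tested carriers of the list lower ones. Of 13 genes listed with the chaperones Bsg and Emb, 12 were tested, 6 higher and 6 lower (Bsg turned lower with total counts as library sizes), with a median log2 fold change of -0.0082. Slc16a1 encodes MCT1, the widespread lactate carrier, and had lower values in each CePPy library, at 79.7, 55.6 and 74.1 CPM in vehicle and 41.3, 50.9 and 51.3 in CePPy (log2 change -0.54 ± 0.15 SE; adjusted p by edgeR 0.136). DESeq2 called it lower (adjusted p = 0.0223), as it called 3.2% of genes, and called 4 carriers of the list higher, as it called 3.4% of genes. These 4 were Slc16a14 (adjusted p = 2.76e-09), Slc16a9 (0.00407), Slc16a7 (0.00603) and Slc16a4 (0.0313). Slc16a14, a family member of uncertain substrate, measured 8.49, 8.65 and 14.6 CPM in vehicle and 44.2, 28.0 and 59.1 in CePPy (log2 change 2.05 ± 0.31 SE; adjusted p by edgeR 0.0813). Its 3 CePPy values were each well above the vehicle range. Slc16a4 measured 16.1 ± 0.893 CPM in vehicle and 46.7 ± 25.02 in CePPy, with CePPy 2 at 20.9, and Slc16a9, a carnitine carrier, 58.7 ± 0.843 and 97.0 ± 25.1. The chaperone gene Bsg, needed to bring MCT1 to the membrane, measured 390 CPM on average in vehicle and 392 in CePPy (log2 change 0.0078 ± 0.10 SE).

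Partners and regulators of the glucose carriers differed in both directions, with log2 fold changes from -0.265 to 0.511. Of 9 genes, 3 were higher and 6 lower, with a median log2 fold change of -0.096. Pdzk1, which anchors luminal carriers, averaged 520 ± 23.8 CPM in vehicle and 742 ± 245 in CePPy (log2 change 0.51 ± 0.21 SE; adjusted p by edgeR 0.241). Stxbp3, a protein of vesicle fusion linked to GLUT4 traffic, measured 54.6 ± 2.65 and 61.2 ± 2.27 CPM. The kinase gene Sgk1 measured 126 ± 3.95 and 104 ± 22.9 CPM.

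Genes that handle urate and sugars inside the tubule were more often higher than lower in CePPy, and none passed by edgeR. Of 7 urate genes, 5 were higher and 2 lower, with a median log2 fold change of 0.24. Slc22a8, an organic anion carrier, measured 131 ± 4.38 CPM in vehicle and 263 ± 93.4 in CePPy, and Slc17a3, a luminal urate exporter, 325 ± 3.57 and 493 ± 139. DESeq2 called both higher (adjusted p = 0.000733 and 0.0255), as it called 3.4% of genes. Abcg2, an exporter of urate and drugs, was lower in each CePPy library, at 472 ± 44.0 and 387 ± 23.0 CPM (log2 fold change -0.29 ± 0.10 SE; adjusted p by edgeR 0.192). Slc22a6 measured 622 ± 49.2 and 802 ± 188 CPM. Slc22a6 and Slc22a8 are also in the list of S1 and S2 markers. Of 16 enzymes of sugar and lactate metabolism that were tested, 11 were higher and 5 lower, with a median of 0.36. G6pc, the glucose-6-phosphatase that frees new glucose for export, measured 90.0, 48.3 and 81.3 CPM in vehicle and 197, 83.1 and 216 in CePPy, where CePPy 2 lay inside the vehicle range (log2 fold change 1.18 ± 0.36 SE; adjusted p by edgeR 0.16). Pcx, the pyruvate carboxylase that starts gluconeogenesis from lactate, measured 211, 181 and 214 CPM in vehicle and 371, 232 and 356 in CePPy (log2 change 0.66 ± 0.18 SE; adjusted p by edgeR 0.131). Hk1, a hexokinase, measured 95.1 ± 8.49 and 127 ± 12.9 CPM. DESeq2 called Pcx and Hk1 higher (adjusted p = 0.00663 and 0.0154), as it called 3.4% of genes. Fbp2, a fructose bisphosphatase gene, measured 59.5, 43.1 and 53.9 CPM in vehicle and 26.4, 24.4 and 24.7 in CePPy, without overlap. Its log2 fold change of -1.05 ± 0.12 (SE) had an adjusted p of 0.0739 by edgeR. DESeq2 called Fbp2 lower (adjusted p = 2.76e-09), as it called 3.2% of genes. Fbp1, another fructose bisphosphatase gene of the list, averaged 313 CPM in vehicle and 518 in CePPy, with overlap between the groups. For Fbp1, edgeR gave a log2 fold change of 0.73 ± 0.29 (SE) and an adjusted p of 0.236. No gene of these 6 lists passed the edgeR test over all genes, and of the 54 genes tested 17 were at an unadjusted p under 0.05 with higher values and 4 with lower, against 9.65% and 9.37% of all genes.

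**Figure D5:**
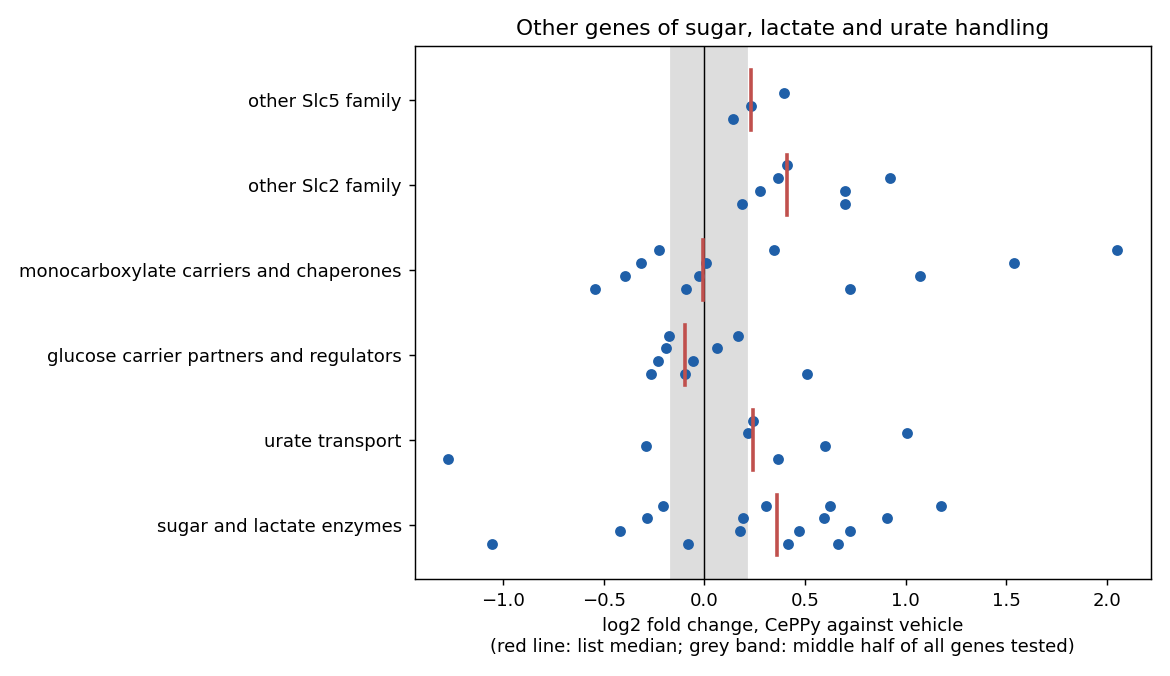
Log2 fold change, CePPy against vehicle (horizontal axis), of every tested gene in 6 lists of related genes, 1 point a gene, with a red line at each list's median and a grey band over the middle quartiles of all genes tested. The other Slc2 genes lie above 0, with a median of 0.41, while the monocarboxylate carriers range from -0.54 (Slc16a1) to 2.05 (Slc16a14).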

How the data were processed

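The authors deposited whole-number read counts per gene for 6 kidney libraries in 1 table, without normalization. The submitters' processing notes name TopHat2, Cufflinks, DESeq and the build GRCm38. The sources used here do not give the counting program, its use of strand or its filters, so reads of overlapping genes could be mixed. Columns were matched to samples through the labels. Genes with low counts were removed with filterByExpr of edgeR 4.0.16 (R 4.3.3), libraries were scaled by TMM, and groups were compared by the quasi-likelihood test with 4 residual degrees of freedom and Benjamini-Hochberg adjustment over 15416 genes (threshold 0.05). The code was tested on simulated data. Levels per kb used the union of exons in GENCODE M21. Ratios had 0.5 counts added and exact permutation tests. Alternatives used DESeq2 1.42.0, limma 3.58.1, other scalings, no filter, a replicate block and each library left out. Named genes were all members, up to 4 genes of each pathway list by lowest p, up to 3 of each marker list by mean CPM where named, up to 3 similar genes for each of 4 members (mean of at least 10 CPM, provisional models left out), and others named for a stated value, except 1 gene that is not reported here, nor is a second motif searched in the promoters. The members and lists were chosen with earlier results of these data known.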

Additional observations from a re-analysis of the deposited data

How the results depend on the processing

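The count of genes called over all genes, 1 by edgeR, was 993 by DESeq2 (512 higher, 481 lower), 352 by limma-voom with sample weights, 63 without the low-count filter, and 0 to 811 with a library left out, the highest being without CePPy 2. The 6 Slc5 members kept a positive fold change in all 12 alternatives. Slc5a1 passed in 4 of them, with log2 fold changes of 0.81 (DESeq2), 0.85 (limma-voom with sample weights), 0.80 (no low-count filter) and 0.87 (without CePPy 2), and ranged from 0.75 to 0.87 with a library left out. Slc5a8 passed at 1.23 (DESeq2), 1.07 (limma-voom) and 1.49 (without CePPy 2), with a range of 0.84 to 1.49. Slc5a2 ranged from 0.25 to 0.60 and passed only without CePPy 2. Slc2a1 turned negative with total counts as library sizes (-0.017), without vehicle 3 (-0.077), without CePPy 2 (-0.081) and without CePPy 3 (-0.089), its range being -0.089 to 0.17. The log2 ratio of Slc2a1 to Slc2a2 also reversed, to -0.037 without vehicle 3, -0.016 without CePPy 2 and -0.038 without CePPy 3, with a range of -0.038 to 0.21. The cause of these shifts was not tested.

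Replicate numbers are shared between the groups. Deviations of same-numbered libraries correlated at -0.15, 0.0978 and -0.021, and those of differently numbered libraries at -0.148 to 0.18. No pairing by number was seen, but with 3 libraries per group this check cannot exclude it. With the number as a replicate block, edgeR called 0 genes and gave Slc2a1 a log2 fold change of -0.014. The blocked ratios, 0.40 for Slc5a1 to Slc5a2, 0.052 for Slc2a1 to Slc2a2 and 0.69 for Slc5a8 to Slc5a12, had exact sign-flip p of 0.5, 0.75 and 0.25, the smallest possible being 0.25. With the longest transcript as length, 6 of 20 levels per kb moved by more than 1 SD, that of Slc5a2 in vehicle from 65.6 to 83.5.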
